A study of Mus musculus with 18 samples.

Results

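The *Dlk1*-*Dio3* imprinted cluster of mouse chromosome 12 was followed through 5 named genes, *Dlk1*, *Meg3*, *Rian*, *Mirg* and *Dio3*, which are 5 of the 24369 genes in the authors' table of expression values. They were picked by symbol, with low values of *Rian* and *Mirg* in both knockouts already known. The values of these genes in the knockouts against wild-type are therefore given as a description, with no test. RNA was sequenced from E14-derived mouse embryonic stem cells (mESCs) that carry a Rex1GFPd2 reporter and Cas9, which all 18 libraries share. In 12 libraries these otherwise wild-type cells were taken on days 0, 1, 2 and 3 of differentiation, with 3 libraries per day. In 6 libraries GFP+ cells, in which the reporter of the naive gene *Rex1* (*Zfp42*) was active, were sorted from wild-type, *Nprl2*-/- and *Tsc2*-/- mESCs, with 2 libraries per genotype. *Nprl2* encodes a subunit of Gator1 and *Tsc2* a subunit of the Tsc complex, both of which restrain mTORC1. The knockouts (KO) were lines picked at clonal density after an exon was deleted with paired gRNAs. The paper kept mESCs on mitomycin-treated feeder fibroblasts in serum with LIF or, where indicated, on gelatin with LIF and inhibitors of MEK and Gsk3. Its differentiation assays used gelatin and a medium without LIF and the inhibitors. The paper's RNA sequencing methods do not name the culture of the cells. The labels do not say whether the libraries of a group came from separate cultures or clones, so p values measure only the spread between these libraries, which may be technical.

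Imprinted genes are transcribed from a single parental copy, set by DNA methylation that is inherited from egg or sperm. In this cluster the protein-coding genes *Dlk1*, *Rtl1* and *Dio3* are known as paternally expressed, and the RNA genes *Meg3*, *Rian* and *Mirg*, which carry many snoRNAs and miRNAs, as maternally expressed. The cluster is known in mouse pluripotent stem cells for the variable silencing of its maternal RNA genes between lines.

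By the RefSeq annotation of GRCm38.p6, the cluster spans 829 kb on chromosome 12, from *Dlk1* (chr12:109452485-109463336) to *Dio3* (chr12:110279230-110281097). *Meg3* (chr12:109540996-109571729), *Rian* (chr12:109603945-109661716) and *Mirg* (chr12:109734981-109749458) lie on the same strand and follow each other within 208 kb. The windows around the starts of *Meg3*, *Dlk1* and *Dio3*, 250 bases before to 50 bases after the RefSeq start, are shown because the levels of these genes moved differently in the data below. All are on the plus strand, at chr12:109540746-109541045 for *Meg3*, chr12:109452573-109452872 for *Dlk1* and chr12:110278980-110279279 for *Dio3*. The *Dlk1* window is that of the RefSeq table and lies around a start downstream of the first base of the gene given above. Capitals mark matches on either strand to the TATA box (TATAAA), the cAMP response element (TGACGTCA) and the core of the motif of Zfp57 (TGCCGC), a zinc finger protein that protects imprints.
Meg3: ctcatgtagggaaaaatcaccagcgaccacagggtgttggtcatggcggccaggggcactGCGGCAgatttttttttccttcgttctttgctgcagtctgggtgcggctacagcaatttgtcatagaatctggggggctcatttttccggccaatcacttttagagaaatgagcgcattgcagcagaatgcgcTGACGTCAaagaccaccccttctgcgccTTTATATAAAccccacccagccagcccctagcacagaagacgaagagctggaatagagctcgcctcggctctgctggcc
Dlk1: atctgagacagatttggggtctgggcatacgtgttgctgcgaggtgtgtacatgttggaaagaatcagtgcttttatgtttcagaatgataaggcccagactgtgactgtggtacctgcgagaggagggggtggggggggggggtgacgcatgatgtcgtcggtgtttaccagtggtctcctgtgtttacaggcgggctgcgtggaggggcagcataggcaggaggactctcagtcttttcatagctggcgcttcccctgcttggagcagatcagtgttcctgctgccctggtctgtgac
Dio3: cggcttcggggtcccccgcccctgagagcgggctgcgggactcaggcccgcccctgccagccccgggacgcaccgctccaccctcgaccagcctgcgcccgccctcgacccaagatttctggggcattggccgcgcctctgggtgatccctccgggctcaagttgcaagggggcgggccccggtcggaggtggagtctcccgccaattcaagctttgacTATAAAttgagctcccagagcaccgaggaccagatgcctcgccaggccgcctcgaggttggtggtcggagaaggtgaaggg
The *Meg3* window held all 3 motifs, with overlapping matches to the TATA box on both strands, beginning at positions -29 and -25 counted from the start, the cAMP response element at -57 and the Zfp57 core at -190 on the minus strand. The *Dio3* window held the TATA box alone, at -31, and the *Dlk1* window held none of the 3. A second *Meg3* window of the RefSeq table, at chr12:109545148-109545447, held 0 matches to each of the 3 motifs and 1 CpG. Among 32851 RefSeq windows of this length, 13.6% held the TATA box, 1.79% the cAMP response element and 11.6% the Zfp57 core. The windows held 25 CpG in *Dio3*, 13 in the *Meg3* window shown, 10 in *Mirg*, 9 in *Dlk1* and 0 in *Rian*, against a median of 7 over all windows. These matches describe letters and were not measured as binding.

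Over the 18 libraries the total of estimated counts lay between 8610357 and 15305054, and a gene with 0 counts may hold up to 3, or 0.196 to 0.348 CPM (counts scaled to library size), for counting error only. The deleted genes were reduced where the labels place them. *Nprl2* was at 5.95 to 6.49 CPM in *Nprl2* KO and 11.7 to 12.6 CPM in wild-type, and *Tsc2* was at 63.6 to 67.2 CPM in *Tsc2* KO and 152 to 155 CPM in wild-type. The summed level of 10 ES cell markers was 3539 to 6216 CPM in the GFP+ libraries, with no marker at or under 3 counts in every library of a group. In bulk RNA, fewer cells of a type and less RNA per cell cannot be told apart.

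Levels between genes are compared as TPM, which corrects for transcript length and for depth. In wild-type GFP+ cells the RNA genes were the abundant ones, and both protein-coding genes were scarce. *Meg3* was at 91.1 and 92.8 TPM, *Rian* at 112 and 94.9 TPM, and *Mirg* at 14.5 and 12.5 TPM. *Dio3*, the deiodinase that inactivates thyroid hormone, was at 2.20 and 1.86 TPM. *Dlk1*, a transmembrane protein related to the Notch ligands, was at 0.685 and 0.353 TPM, from 24 counts in both libraries together, and did not pass the filter on low counts of the GFP+ fit.

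**Figure D1:**
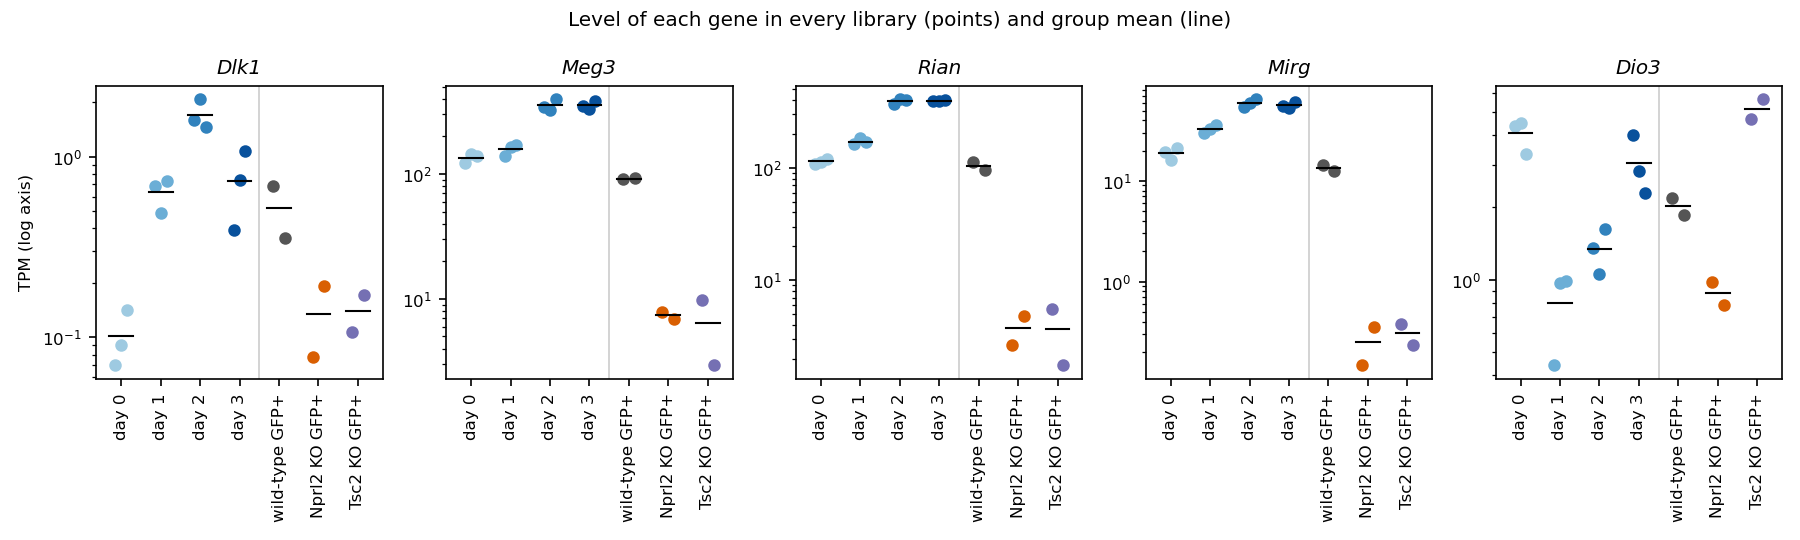
TPM of the 5 genes (log axis, a scale of its own in each panel) in each of the 18 libraries, grouped by day of differentiation and by GFP+ genotype, with a line at the group mean. *Meg3*, *Rian* and *Mirg* share a shape, with all 4 KO libraries far under all others, whereas *Dio3* is highest in *Tsc2* KO.

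In the differentiation time course, *Dlk1* and the 3 RNA genes rose and *Dio3* fell and came back. At day 1 against day 0, 5 of 5 genes passed the test, 4 higher and 1 lower, and at day 2 again 5 of 5, 4 higher and 1 lower. At day 3, 4 of 5 passed, all 4 higher. *Dlk1*, among the higher genes on each day, passed the filter on low counts only through days 1 to 3. Its calls therefore rest on the days on which it was high. Calls were common in this time course, at 60.9% of the 14382 tested genes at day 1 (30.1% higher and 30.8% lower), 66.6% at day 2 (34.2% and 32.4%) and 70.9% at day 3 (35% and 35.9%), so a call by itself did not set a gene of the cluster apart. The libraries of a day did not overlap those of day 0, in CPM, for 33.8% (higher) and 34% (lower) of genes on day 1, 34.7% and 33.2% on day 2, and 36.3% and 37.2% on day 3. Between neighbouring days, in TPM, the later libraries all lay higher for 29.4% of genes and lower for 38.1% from day 0 to day 1, for 43.1% and 25.1% from day 1 to day 2, and for 24.7% and 17.7% from day 2 to day 3. The median log2 fold change of the 5 genes was 0.65, 1.60 and 1.49 at days 1, 2 and 3, where the median of all tested genes was 0.00, 0.01 and -0.01.

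*Meg3*, a long noncoding RNA, was at 123, 145 and 139 TPM on day 0 and at 139, 165 and 170 TPM on day 1. On day 2 it was at 345, 327 and 396 TPM, and on day 3 at 349, 333 and 384 TPM. The libraries of days 0 and 1 overlapped, those of day 2 all lay above day 1, and those of days 2 and 3 overlapped. In edgeR's quasi-likelihood test on counts, the log2 fold change against day 0 was 0.41 ± 0.08 (SE) on day 1 (adjusted p = 0.000173), 1.58 ± 0.08 on day 2 (adjusted p = 2.83e-12) and 1.48 ± 0.08 on day 3 (adjusted p = 5.35e-12). The day 1 rise was not called on TPM, where limma gave a log2 fold change of 0.22 with an adjusted p of 0.0510 with a pseudocount of 1, in a range of 2.02e-06 to 0.0520 over all 13 alternatives.

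The transcripts of *Meg3* were compared over these days, with no test. The annotation lists a short form of 1924 bases and long forms of 11488 and 11476 bases. The short form held 93.5% of the *Meg3* TPM on day 0 and 89.3% on day 2 (means, n = 3), and the form of 11488 bases held 6.0% and 9.93%. The latter was at 7.32 to 9.13 TPM on day 0, 10.5 to 13.7 TPM on day 1, 33.1 to 36.2 TPM on day 2 and 31.2 to 33.8 TPM on day 3. Its libraries of day 1 all lay above those of day 0, which was not so for the TPM of the gene as a whole, although its CPM did not overlap between these days. The forms share sequence, and the split between them is an estimate of kallisto.

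*Rian*, the host of a group of C/D box snoRNAs, was at 109, 113 and 120 TPM on day 0 and at 161, 183 and 168 TPM on day 1. On day 2 it was at 368, 405 and 397 TPM and on day 3 at 394, 390 and 400 TPM. Each day stood apart from the day before, except that days 2 and 3 overlapped. The log2 fold change against day 0 was 0.65 ± 0.06 on day 1 (adjusted p = 2.31e-08), 1.73 ± 0.06 on day 2 (adjusted p = 9.72e-15) and 1.70 ± 0.06 on day 3 (adjusted p = 8.80e-15, edgeR).

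*Mirg*, the host of many miRNAs, was at 19.4, 16.3 and 21.3 TPM on day 0 and at 29.9, 33.0 and 36.0 TPM on day 1. On day 2 it was at 54.4, 58.8 and 64.6 TPM and on day 3 at 55.2, 53.1 and 61.5 TPM. As for *Rian*, days 2 and 3 overlapped and every earlier step separated the libraries. The log2 fold change was 0.87 ± 0.11 on day 1 (adjusted p = 1.17e-06), 1.60 ± 0.10 on day 2 (adjusted p = 7.50e-11) and 1.49 ± 0.10 on day 3 (adjusted p = 1.75e-10, edgeR).

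*Dlk1* had the largest log2 fold changes of the 5 genes, from low levels. It was at 0.0697, 0.0905 and 0.142 TPM on day 0, from 9 counts in all 3 libraries, and at 0.685, 0.487 and 0.735 TPM on day 1. On day 2 it reached 1.59, 2.07 and 1.46 TPM, and on day 3 it was at 0.392, 0.738 and 1.07 TPM. All day 2 libraries lay above those of days 1 and 3. The log2 fold change against day 0 was 2.78 ± 0.47 on day 1 (adjusted p = 4.38e-05), 4.08 ± 0.41 on day 2 (adjusted p = 4.09e-08) and 2.79 ± 0.46 on day 3 (adjusted p = 2.51e-05, edgeR). With 2, 3 and 4 counts in the day 0 libraries, *Dlk1* passed the filter on low counts only through the later days, when it was high. These p values are therefore no independent support for its rise. Taken over pooled counts, day 2 was 17.5 times day 0, with a 95% counting interval of 9.0 to 39.1. Of its 5 annotated transcripts, the form of 4339 bases held between 83.8% and 100% of the *Dlk1* TPM in each day 2 library.

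*Dio3* went the other way on day 1. It was at 4.37, 4.49 and 3.33 TPM on day 0 and at 0.439, 0.971 and 0.985 TPM on day 1. On day 2 it was at 1.35, 1.05 and 1.62 TPM and on day 3 at 4.01, 2.84 and 2.30 TPM. In TPM, days 1, 2 and 3 were in rising order with no overlap between neighbouring days, and day 3 overlapped day 0. In CPM, days 1 and 2 just overlapped, with library 2 of day 1 at 0.98717 and library 2 of day 2 at 0.986909, from 13 counts each. The log2 fold change against day 0 was -2.28 ± 0.31 on day 1 (adjusted p = 3.57e-06), -1.64 ± 0.29 on day 2 (adjusted p = 4.95e-05) and -0.49 ± 0.25 on day 3 (adjusted p = 0.0875, edgeR). Without day 3 library 1 the day 3 fall was called (log2 fold change -0.75, adjusted p = 0.0222), with a range of 0.0222 to 0.310 over the 13 alternatives. The antisense RNA *Dio3os*, which lies beside *Dio3*, had 1 count on day 1 and 1 on day 2 over all 3 libraries, against 7 on day 0 and 9 on day 3.

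**Figure D2:**
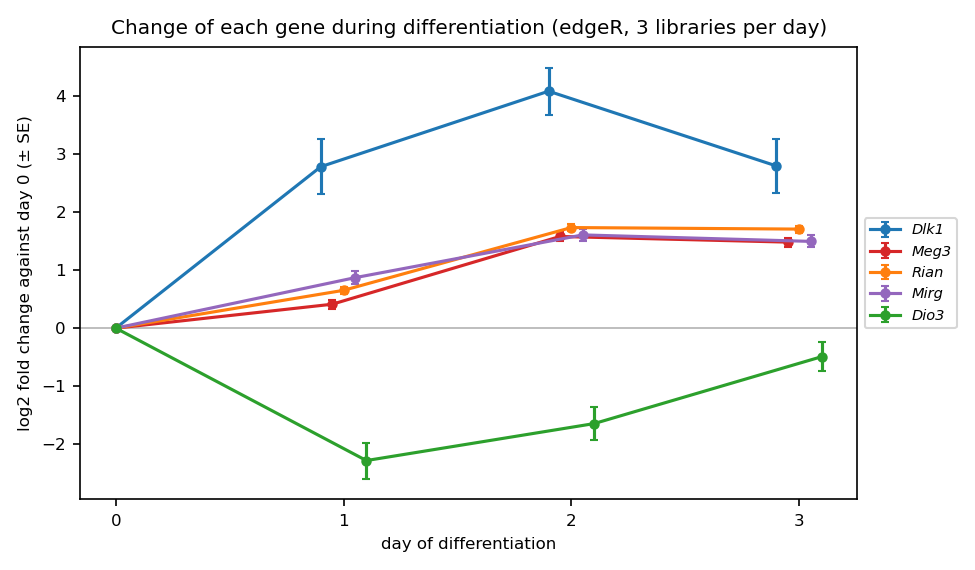
Log2 fold change of each gene against day 0 on days 1, 2 and 3 (points, edgeR, with bars of ± SE, 12 libraries). *Meg3*, *Rian* and *Mirg* run together and level off at day 2, *Dlk1* peaks at 4.08 on day 2, and *Dio3* returns from -2.28 on day 1 to -0.49 on day 3.

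*Rtl1*, a protein-coding gene derived from a retrotransposon, is the only other protein-coding gene listed between *Dlk1* and *Dio3*, and by coordinates it overlaps both *Meg3* and *Rian*. It was at 0.370, 0.298 and 0.626 TPM on day 0 and at 0.875, 1.01 and 1.07 TPM on day 2. Its log2 fold change was 0.79 ± 0.28 on day 1 (adjusted p = 0.0207), 1.14 ± 0.27 on day 2 (adjusted p = 0.00115) and 1.02 ± 0.27 on day 3 (adjusted p = 0.00266, edgeR). In wild-type GFP+ cells it was at 0.249 and 0.483 TPM, from 20 counts, and it had 2 counts over both *Nprl2* KO libraries and 1 over both *Tsc2* KO libraries. The wild-type level was 12.1 times that of *Nprl2* KO (95% counting interval 2.95 to 107) and 27.2 times that of *Tsc2* KO (4.35 to 1126). By coordinates the noncoding RNA gene *6430411K18Rik* also lies within *Rtl1*. Counting by strand is not stated, so reads of *Rtl1* may not be told apart from those of these RNA genes where their transcripts share sequence. Whether they do was not tested.

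In the sorted GFP+ cells the RNA genes were far lower in both KOs than in wild-type, and *Dio3* differed between the KOs. *Meg3* was at 7.93 and 6.95 TPM in *Nprl2* KO and at 9.82 and 2.94 TPM in *Tsc2* KO, against 91.1 and 92.8 TPM in wild-type. *Rian* was at 2.67 and 4.81 TPM in *Nprl2* KO and at 5.56 and 1.75 TPM in *Tsc2* KO, against 112 and 94.9 TPM. *Mirg* was at 0.147 and 0.352 TPM in *Nprl2* KO and at 0.380 and 0.233 TPM in *Tsc2* KO, against 14.5 and 12.5 TPM. All 4 KO libraries lay below both wild-type libraries for each of the 3 genes. Over all 13725 genes tested in GFP+ cells, 11% had all 4 KO libraries below both wild-type libraries, 25.2% had both *Nprl2* KO libraries below, and 32.3% had both *Tsc2* KO libraries below. The cluster was chosen on this contrast, so these counts are given as a description.

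The ratios of wild-type to KO were given for each RNA gene with counting intervals, which leave out the spread between libraries. On pooled counts scaled by library size, wild-type *Meg3* was 12.5 times *Nprl2* KO (95% counting interval 11 to 14.3) and 15 times *Tsc2* KO (13.1 to 17.2). Leaving out 1 library moved the log2 ratio of *Meg3* in *Tsc2* KO between -5.01, without *Tsc2* KO library 1, and -3.24, without library 2. For *Rian* the ratios were 26.4 (22.8 to 30.9) and 29.9 (25.7 to 35.0). For *Mirg*, which had 4 counts over both *Nprl2* KO libraries and 5 over both *Tsc2* KO libraries against 170 in wild-type, they were 51.6 (19.8 to 192) and 46.2 (19.4 to 144). With 1 library left out, the log2 ratio in *Tsc2* KO lay between -5.93 and -4.24 for *Rian* and between -5.91 and -5.18 for *Mirg*, so the range of *Rian* overlapped those of *Meg3* and *Mirg*. Within libraries, *Rian* was at 0.783 to 1.24 times the TPM of *Meg3* in the 14 libraries without a KO and at 0.337 to 0.693 times in the 4 KO libraries. *Rian* was at 7.76 and 7.58 times the TPM of *Mirg* in wild-type, at 18.1 and 13.7 times in *Nprl2* KO and at 14.6 and 7.51 times in *Tsc2* KO, where library 2 was just under both wild-type values.

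The forms of *Meg3* kept similar shares. Of the *Meg3* TPM in each library, the short form held 90.4% and 91.7% for wild-type, 93% and 90.8% for *Nprl2* KO, and 90.8% and 90.9% for *Tsc2* KO. All 3 forms were lower in every KO library than in either wild-type library, and the highest value of the 11488-base form in a KO was 0.837 TPM against a lowest wild-type value of 6.63 TPM.

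*Dlk1* was at 0.0778 and 0.192 TPM in *Nprl2* KO and at 0.106 and 0.171 TPM in *Tsc2* KO, from 8 counts in each KO, and all 4 values lay below both wild-type libraries. Wild-type was 3.64 times *Nprl2* KO (95% counting interval 1.58 to 9.38) and 4.08 times *Tsc2* KO (1.77 to 10.5). *Dio3* was at 0.972 and 0.787 TPM in *Nprl2* KO, below both wild-type values of 2.20 and 1.86 TPM. In *Tsc2* KO it was at 4.67 and 5.64 TPM, above both. The *Nprl2* KO level was 0.434 times wild-type (0.239 to 0.764) and the *Tsc2* KO level was 2.46 times wild-type (1.70 to 3.63). These counting intervals leave out the spread between libraries and are no test. Both libraries of *Tsc2* KO lay above wild-type for 33.6% of tested genes. *Dio3* was thus the only gene of the 5 that was higher in a KO.

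The direct comparison of *Tsc2* KO with *Nprl2* KO was not used to choose the genes and was tested. Of the 4 genes that passed the filter on low counts, *Mirg* only through its wild-type libraries, 1 was called, *Dio3*, where 34.2% of all tested genes were called (17.5% higher and 16.6% lower). Both *Tsc2* KO libraries lay above both *Nprl2* KO libraries for 34.1% of tested genes and below for 34%. Its log2 fold change was 2.48 ± 0.33 (adjusted p = 0.000115, edgeR, n = 2 and 2 libraries), higher in both *Tsc2* KO libraries. It was called under all 11 alternatives, with adjusted p between 6.27e-11 and 0.00307. For the RNA genes the KO libraries overlapped, and the log2 fold change was -0.25 ± 0.62 for *Meg3* (adjusted p = 0.806) and -0.15 ± 0.69 for *Rian* (adjusted p = 0.895). *Mirg* had 1 and 3 counts in *Nprl2* KO and 3 and 2 counts in *Tsc2* KO, too few to compare. The *Tsc2* KO libraries stood apart from each other in *Meg3* (9.82 and 2.94 TPM) and *Rian* (5.56 and 1.75 TPM). Without *Tsc2* KO library 1, *Meg3* was called lower in *Tsc2* KO than in *Nprl2* KO (log2 fold change -1.36, adjusted p = 0.000304, in a range of 0.000304 to 0.900 over its 11 alternatives), and without library 2 its log2 fold change was 0.41 (adjusted p = 0.0661).

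Markers of the feeder fibroblasts were lower in *Tsc2* KO library 2 than in library 1, as were *Meg3* and *Rian*, whereas *Dio3* was higher in library 2. *Mirg*, with 3 and 2 counts in libraries 1 and 2, and *Dlk1*, with 3 and 5 counts, had too few counts to compare. Over 16 fibroblast genes, the summed level was 587 CPM in *Tsc2* KO library 1 and 164 CPM in library 2, and the collagen gene *Col1a1* was at 152 and 37.2 CPM. The other GFP+ libraries lay between 477 and 665 CPM in the sum, with *Col1a1* at 134 to 179 CPM. *Tsc2* KO library 2 was the lowest of the 6 GFP+ libraries in the fibroblast sum, *Meg3* and *Rian*. In *Nprl2* KO libraries 1 and 2 the sum was 529 and 531 CPM, with *Meg3* at 7.93 and 6.95 TPM and *Rian* at 2.67 and 4.81 TPM. In wild-type libraries 1 and 2 it was 665 and 477 CPM, with *Meg3* at 91.1 and 92.8 TPM and *Rian* at 112 and 94.9 TPM. In the time course the sum was 61.3 to 92.4 CPM on day 0, 59.0 to 60.7 CPM on day 1, 106 to 175 CPM on day 2 and 264 to 437 CPM on day 3, where *Meg3* was at 123 to 170 TPM on days 0 and 1 and at 327 to 396 TPM on days 2 and 3, while *Col1a1* went from 7.71 to 16.8 CPM on day 0 to 2.53 to 3.05 CPM on day 3. In each GFP+ group 2 of the 16 genes, *Lum* and *Fap*, were at or under 3 counts in every library, and of the 13 that were tested edgeR called 0 in either KO against wild-type, with 0 at an unadjusted p under 0.05 and 0 called by DESeq2 or limma. The tested markers had a median log2 fold change of -0.22 (*Nprl2* KO) and -0.74 (*Tsc2* KO). Fibroblasts are known to transcribe genes of this cluster, the feeder cells do not carry the GFP reporter on which the cells were sorted, and their part in the values of the cluster was not tested.

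Small RNAs of the cluster could be followed only through reads on their listed genes, and the GFP+ libraries were made from mRNA. RefSeq lists 72 other genes between *Dlk1* and *Dio3* that are in the files, among them 61 miRNA genes and 7 snoRNA genes, of which 19 and 6 had a count in any library. The miRNA and snoRNA genes together held 14 and 13 counts in the wild-type GFP+ libraries, 0 in both *Nprl2* KO libraries and 0 and 1 in *Tsc2* KO. In the time course they held 5 to 11 counts per library on day 0, 9 to 11 on day 1, 16 to 29 on day 2 and 20 to 36 on day 3. *Mir3072* led with 63 counts over the 18 libraries, and its gene lies within *Mirg*. Its mature sequences are shown with the seed, bases 2 to 8, in capitals, because it was the small RNA gene of the cluster with the most counts.
mmu-miR-3072-5p: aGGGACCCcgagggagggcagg
mmu-miR-3072-3p: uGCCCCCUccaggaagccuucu
*Mir3072* had 3 and 6 counts in wild-type, 0 in all 4 KO libraries, 1 in each day 0 library and 15, 7 and 10 on day 3. Reads on so short a gene that lies inside *Mirg* may come from the *Mirg* transcript, and the mature miRNAs were not measured.

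The genes beside the cluster were also lower in the KOs, by a smaller amount. Among the 10 nearest tested genes on each side, 13 of 20 were called lower in *Nprl2* KO and 16 of 20 in *Tsc2* KO, and none was called higher, where 3.65% and 14.2% of all tested genes were called lower. The neighbours had a median of -0.73 on the log2 scale in *Nprl2* KO, and -0.75 in *Tsc2* KO, against 0.00 over all genes in both. On the *Dlk1* side the nearest tested gene was *Begain*, at 1.02 and 0.988 TPM in wild-type, 0.448 and 0.418 TPM in *Nprl2* KO and 0.451 and 0.208 TPM in *Tsc2* KO. On the *Dio3* side it was *Ppp2r5c*, a regulatory subunit of the phosphatase PP2A, at 79.6 and 79.1 TPM in wild-type, 44.7 and 45.5 TPM in *Nprl2* KO and 46.1 and 48.5 TPM in *Tsc2* KO. *Ppp2r5c* was called in both (log2 fold change -0.77 ± 0.08, adjusted p = 0.000141, and -0.69 ± 0.08, adjusted p = 4.00e-05, edgeR), and *Begain* in *Tsc2* KO alone (-1.17 ± 0.48, adjusted p = 0.185, and -1.64 ± 0.50, adjusted p = 0.0287). In the time course, where *Slc25a29* and *Hhipl1* stood in for *Ccdc85c* and *Ccnk* among the nearest tested genes, the medians over the 20 neighbours were -0.10, 0.07 and 0.15 on days 1, 2 and 3, where 2, 6 and 9 were called higher and 5, 5 and 4 lower. Of all tested genes, 30.1%, 34.2% and 35% were called higher on days 1, 2 and 3, and 30.8%, 32.4% and 35.9% lower. On day 3 the sides differed in their medians, at 0.75 before *Dlk1*, with 8 of 10 called higher and 0 lower, and -0.31 after *Dio3*, with 1 higher and 4 lower.

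**Figure D3:**
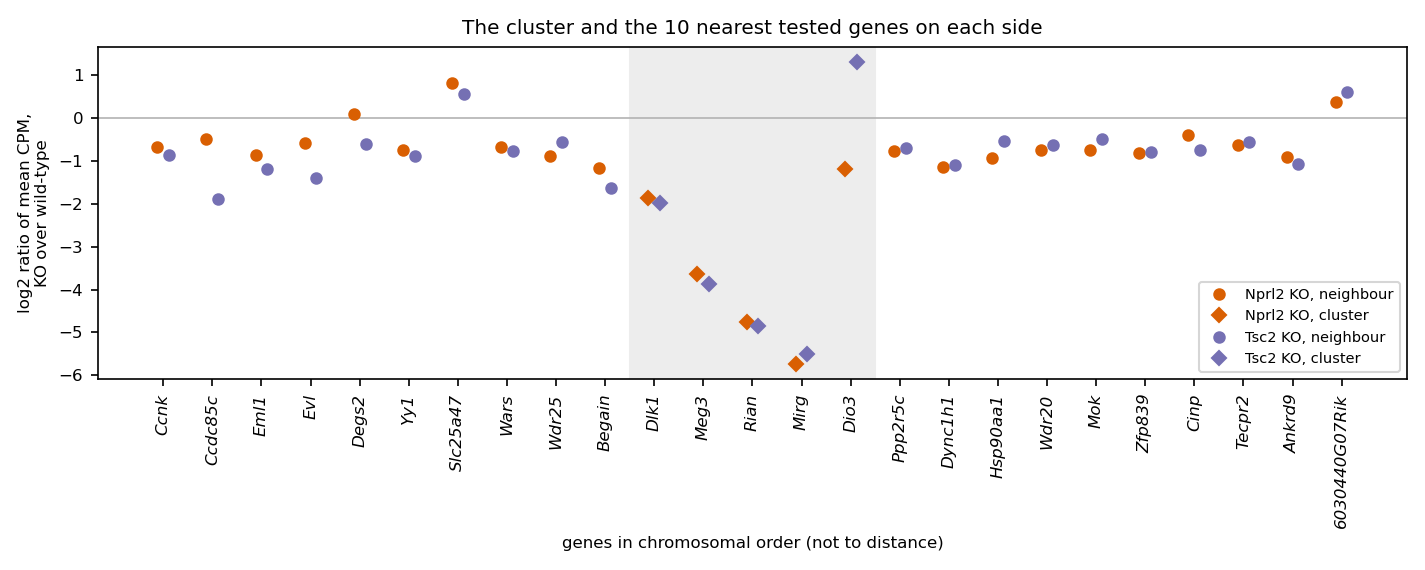
Log2 ratio of mean CPM, KO over wild-type, for the 5 genes of the cluster (diamonds, grey band) and the 10 nearest tested genes on each side (circles), in chromosomal order. The neighbours have medians of -0.73 and -0.75, the RNA genes lie between -3.64 and -5.74, and *Dio3* is above 0 in *Tsc2* KO only.

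The lower level of neighbours reached over the whole end of chromosome 12. In bins of 5 Mb, with the cluster and *Rtl1* left out, the 5 bins from 95 Mb to the end of the chromosome had medians between -0.87 and -0.67 in *Nprl2* KO and between -0.90 and -0.63 in *Tsc2* KO. The 16 bins of at least 5 genes before 90 Mb had medians between -0.11 and 0.12 in *Nprl2* KO and between -0.40 and 0.10 in *Tsc2* KO. On the other chromosomes, 1 of 455 bins of at least 5 genes in *Nprl2* KO and 6 of 455 in *Tsc2* KO had a median under -0.5. The border at 95 Mb was set after the values were seen, and no test is given for it. Over the 120 tested genes from 95 Mb on, *Nprl2* KO had a median of -0.69 (0.618 times wild-type) and *Tsc2* KO of -0.75 (0.596 times wild-type). *Tsc2* KO against *Nprl2* KO gave a median of -0.06 over the same genes, and days 1, 2 and 3 against day 0 gave -0.10, 0.18 and 0.16 over 134 genes.

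**Figure D4:**
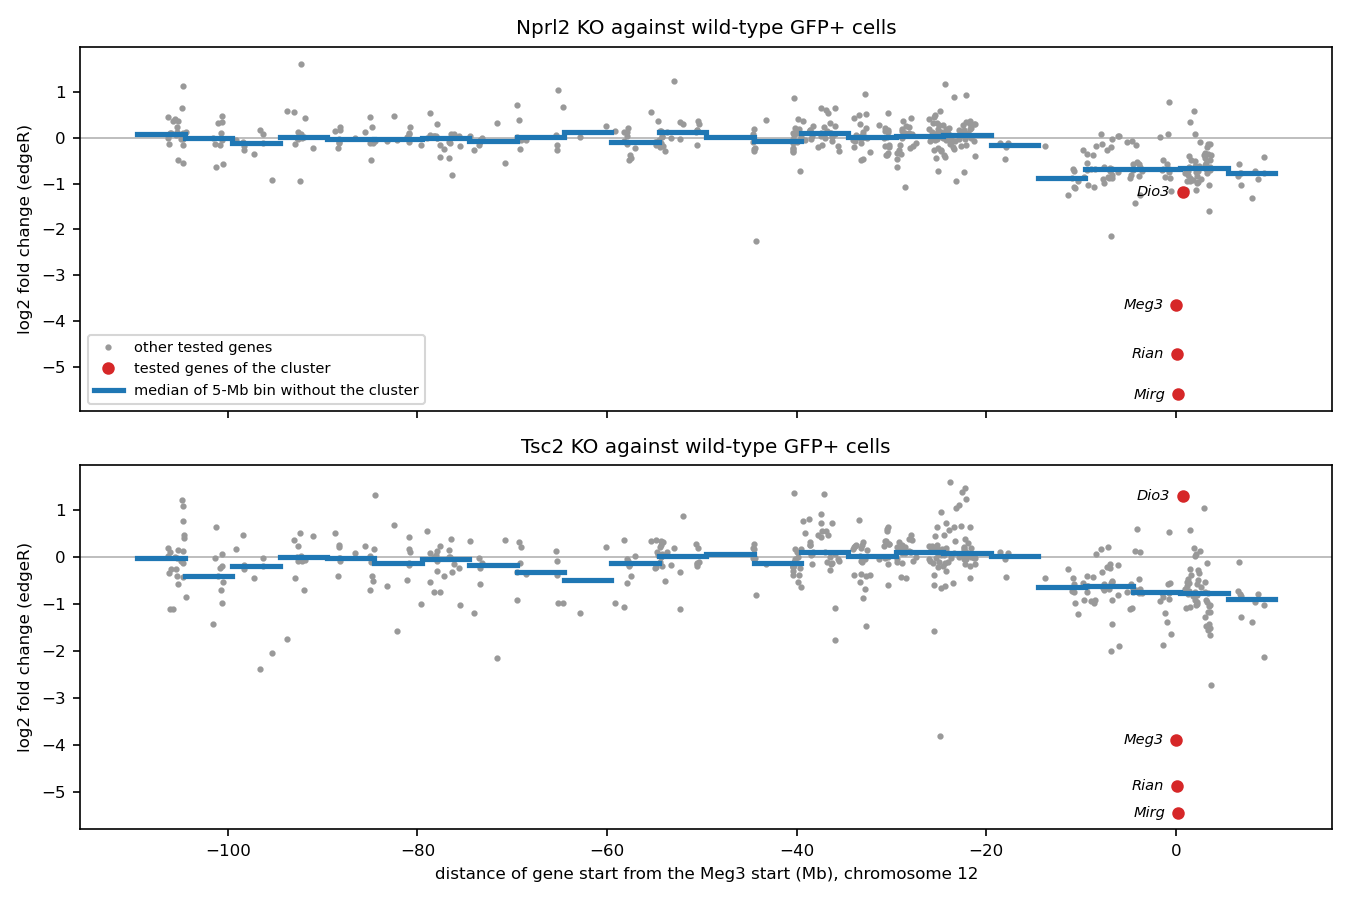
Log2 fold change (edgeR) of each tested gene of chromosome 12 in *Nprl2* KO (top) and *Tsc2* KO (bottom) against wild-type GFP+ cells, by the distance of its start from that of *Meg3*, with the median of each 5-Mb bin (blue) and the tested genes of the cluster (red). In both KOs the medians step down before *Meg3* is reached and stay between -0.90 and -0.63 to the end, and *Meg3*, *Rian* and *Mirg* lie far below them.

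Set against that median, *Meg3* had a log2 ratio of -2.95 (*Nprl2* KO) and -3.12 (*Tsc2* KO), and that of *Rian* was -4.06 and -4.10. *Mirg* stood at -5.04 and -4.75, and *Dlk1* at -1.17 and -1.24. *Dio3* stood at -0.48 in *Nprl2* KO and at 2.06 in *Tsc2* KO. This reference was chosen after the data had been seen. The part of the wider shift in the values of the cluster was not tested.

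Genes whose levels ran closest to those of the RNA genes were found on the same stretch when the KOs were included. Over all 18 libraries, the 3 genes outside the cluster with the highest Pearson correlation of log2(CPM + 1) were *Esyt2*, *Tdp1* and *Zc3h14* for *Meg3* (r = 0.97 each), *Ncapg2*, *Esyt2* and *Dync1h1* for *Rian* (r = 0.97 each), and *Tdp1*, *Atg2b* and *Cpsf2* for *Mirg* (r = 0.98, 0.97 and 0.97). All 9 entries, 7 different genes, lie on chromosome 12 from 95 Mb on. The low KO values on which the cluster was chosen enter these correlations, which favours genes that were also low in both KOs. The entries are therefore no further result. For *Dlk1* they were *Pou2f2*, *Cd34* and *Kynu* (r = 0.92 each) and for *Dio3* *Neo1*, *Gabarap* and *Vps35l* (r = 0.94, 0.94 and 0.93), on other chromosomes. Over the 12 time-course libraries alone, none of the genes named by the same rule lay on chromosome 12. They were *Miat*, *Gm3411* and *Cend1* for *Meg3*, *Jakmip2*, *St8sia3* and *Zcchc12* for *Rian*, *Dtd1*, *Ptprf* and *Plxna3* for *Mirg*, *Pou2f2*, *Gpam* and *Cd34* for *Dlk1*, and *Kmt5c*, *Gramd1a* and *Fah* for *Dio3*, with r between 0.96 and 0.99. Within the cluster over these 12 libraries, r was 0.99 for *Meg3* and *Rian*, 0.97 for *Rian* and *Mirg*, 0.86 for *Dlk1* and *Mirg* and -0.72 for *Dlk1* and *Dio3*. The libraries of a group are not independent points, and the GFP+ and time-course libraries were scaled separately.

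Across all 7 groups the order of levels in TPM was the same for *Meg3*, *Rian* and *Mirg* up to neighbours whose libraries overlapped. Both KOs were lowest and overlapped, then came wild-type GFP+ cells, day 0 and day 1, and days 2 and 3 were highest and overlapped. For *Meg3*, day 0 overlapped day 1, and for *Rian*, wild-type GFP+ cells overlapped day 0. For *Dlk1*, day 0 and both KOs formed the lowest, overlapping set, wild-type GFP+ cells, day 1 and day 3 the next, and day 2 stood above all. For *Dio3* the order ran from day 1 and *Nprl2* KO, which overlapped, through day 2, wild-type GFP+ cells, and days 3 and 0, which overlapped, to *Tsc2* KO. The GFP+ and time-course libraries are separate sets, so a difference between a GFP+ group and a day cannot be told apart from one between the sets. Wild-type GFP+ cells and day 0 also differed in the summed fibroblast markers (477 to 665 and 61.3 to 92.4 CPM) and formative markers (947 to 1106 and 351 to 379 CPM).

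Factors of imprint maintenance, of DNA methylation and of the Polycomb complexes were listed beside the cluster. Of 21 such genes, all tested, 11 rose and 4 fell on day 1, 6 rose and 12 fell on day 2, and 5 rose and 14 fell on day 3, with median log2 fold changes of 0.18, -0.56 and -0.70, where 60.9%, 66.6% and 70.9% of all tested genes were called. *Zfp57* fell from 663 CPM on day 0 to 55.4 CPM on day 3 (log2 fold change -3.58 ± 0.09, adjusted p = 3.83e-16, edgeR), while the de novo methyltransferase *Dnmt3b* rose from 228 to 2294 CPM (3.33 ± 0.13, adjusted p = 4.39e-10) and *Dnmt3a* from 56.6 to 275 CPM (2.28 ± 0.12, adjusted p = 1.72e-09). The largest changes on day 3 were the falls of *Dnmt3l*, a cofactor of these enzymes (-5.44 ± 0.26), *Tet2*, which oxidizes methylated cytosine (-4.37 ± 0.18), and *Dppa3*, which protects methylation in the early embryo (-3.86 ± 0.60, from 1.15 CPM on day 0). In *Nprl2* KO, 2 of 21 rose and 1 fell, with a median of -0.11, where 6.43% of all tested genes were called. These were *Dppa3* (18.4 to 39.3 CPM, 1.10 ± 0.19, adjusted p = 0.00710), *Dnmt3b* (0.45 ± 0.08, adjusted p = 0.00442) and *Tet2* (-0.43 ± 0.10, adjusted p = 0.0287). The call of *Tet2* was lost under 6 of 11 alternatives, among them without wild-type library 1, wild-type library 2 or *Nprl2* KO library 2 (adjusted p = 0.158, 0.0515 and 0.190), and that of *Dppa3* without wild-type library 1 (adjusted p = 0.0569). In *Tsc2* KO, 3 rose and 7 fell, with a median of -0.17, where 29.1% of all genes were called. *Dppa3* fell to 4.09 CPM (-2.16 ± 0.23, adjusted p = 9.42e-05), *Dnmt3b* from 771 to 177 CPM (-2.12 ± 0.08, adjusted p = 1.52e-08) and *Aff3* by 0.89 on the log2 scale (adjusted p = 0.00306), and *Zfp57* rose from 355 to 609 CPM (0.78 ± 0.14, adjusted p = 0.00801, and 0.0547 without wild-type library 2). *Dppa3*, *Dnmt3b* and *Zfp57* also differed between the KOs, with log2 fold changes of -3.26 ± 0.22, -2.57 ± 0.08 and 1.09 ± 0.14 in *Tsc2* KO against *Nprl2* KO. In that comparison 5 of the 21 were higher and 2 lower, with a median of -0.04, where 34.2% of all tested genes were called.

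Imprinted genes of other clusters were called in both directions. Of 46 listed, 42 were tested in GFP+ cells. In *Nprl2* KO 2 rose and 4 fell (median -0.03), where 2.78% of all tested genes were called higher and 3.65% lower. In *Tsc2* KO 9 rose and 13 fell (median -0.08), where 14.9% were called higher and 14.2% lower. *H19*, a maternally expressed RNA of another cluster, was at 10.2 CPM in wild-type and 66.0 CPM in *Tsc2* KO (log2 fold change 2.66 ± 0.31, adjusted p = 0.00213, edgeR). In *Nprl2* KO it was at 4.05 CPM (-1.38 ± 0.42, adjusted p = 0.134), with a call without wild-type library 2 (-1.72, adjusted p = 0.0414) in a range of 3.32e-11 to 0.426 over the 11 alternatives. The largest called changes in *Nprl2* KO were *Plagl1* (-0.80 ± 0.16), *Mest* (-0.74 ± 0.08) and *Snrpn* (0.54 ± 0.08), and in *Tsc2* KO, beside *H19*, *Sfmbt2* (-1.74 ± 0.22) and *Magel2* (-1.56 ± 0.34). The call of *Plagl1* was lost without wild-type library 2, *Nprl2* KO library 1 or *Nprl2* KO library 2 (adjusted p = 0.0545, 0.0599 and 0.0546), and that of *Magel2* without *Tsc2* KO library 2 (adjusted p = 0.0524). In *Tsc2* KO against *Nprl2* KO, 10 were higher and 12 lower (median -0.05), led by *H19* (4.04 ± 0.35), *Plagl1* (2.08 ± 0.14) and *Sfmbt2* (-1.96 ± 0.22). Of all tested genes, 17.5% were called higher and 16.6% lower there. In the time course, of 41 tested, 19 rose and 9 fell on day 1, 23 rose and 8 fell on day 2, and 21 rose and 12 fell on day 3, with medians of 0.38, 0.49 and 0.53. Of all tested genes, 60.9%, 66.6% and 70.9% were called on these days. *H19* was at 2.32 CPM on day 0 and 7.55 to 7.99 CPM in the means of the later days. *Magel2* had the largest rise on day 3 (5.05 ± 0.25), followed by *Nnat* (3.98 ± 0.14) and *Nap1l5* (2.70 ± 0.27).

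*Dlk1* and *Dio3* act in Notch and thyroid hormone signalling, and other genes of those pathways were compared with them. Of 20 listed genes, 15 were tested. On day 1, 6 rose and 8 fell (median -0.40), on day 2, 9 rose and 4 fell (median 1.04), and on day 3, 10 rose and 3 fell (median 1.16). Of all tested genes, 60.9%, 66.6% and 70.9% were called on these days. The Notch ligand *Dll1* rose from 2.34 to 43.6 CPM on day 1 (4.17 ± 0.26), and the receptor *Notch4* fell from 19.2 to 1.36 CPM on day 1 (-3.80 ± 0.21). The ligand *Dll4* rose from 0.0535 CPM on day 0 to 0.841 CPM on day 3 (3.83 ± 0.71, adjusted p = 8.14e-05, edgeR). Its day 0 level was under the 3-count floor of 0.196 to 0.240 CPM in these libraries. *Dll4* thus passed the filter on low counts only through later days, and the size of its rise is uncertain. In *Nprl2* KO only *Notch2* was called (-0.53 ± 0.09, adjusted p = 0.00636, edgeR), with a median of -0.03 over the list, where 6.43% of all tested genes were called. This call was lost under limma on log2(TPM + 0.1) (adjusted p = 0.0504) and without *Nprl2* KO library 2 (adjusted p = 0.0675). In *Tsc2* KO, 2 rose and 9 fell (median -0.77), where 29.1% of all tested genes were called. The called genes of the list included the Notch target *Hes1* (1.72 ± 0.16) and the ligand *Jag2* (-1.57 ± 0.18). *Jag2* starts 3.37 Mb after *Meg3*, on the end of chromosome 12, where the median of the tested genes was -0.75 in *Tsc2* KO. Against *Nprl2* KO, 1 was higher and 8 were lower in *Tsc2* KO (median -0.50), among them *Dll3* (-2.36 ± 0.35) and *Hes1* (1.86 ± 0.16). Of all tested genes, 17.5% were called higher and 16.6% lower in that comparison.

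Markers of other cell types gave the state of the cells in which the cluster was measured. Of all tested genes, 60.9%, 66.6% and 70.9% were called on days 1, 2 and 3, 6.43% in *Nprl2* KO and 29.1% in *Tsc2* KO. ES cell markers fell in the time course (9 of 10 called lower and 1 higher on day 3) and all 8 formative markers rose on each day. In *Nprl2* KO 5 of 10 ES cell markers were lower and 1 of 8 formative markers higher, and in *Tsc2* KO 7 were higher and 1 lower, whereas 7 of 8 formative markers were lower in *Tsc2* KO. Of 9 tested endoderm markers edgeR called 0 in either KO, with 0 at an unadjusted p under 0.05, and of 2 tested mesoderm markers it called 0, with 1 at an unadjusted p under 0.05 in each KO. DESeq2 and limma called 0 in both lists. Of 5 tested neural markers 1 was higher in *Nprl2* KO and 2 lower in *Tsc2* KO. Of 8 markers of placenta and muscle, tissues in which the cluster is strongly expressed, 3 were tested, of which 1 was higher in *Tsc2* KO and 0 were called in *Nprl2* KO by edgeR, DESeq2 or limma (1 at an unadjusted p under 0.05), and *Elf5*, *Myod1*, *Myog* and *Myf5* were at or under 3 counts in every GFP+ library. On day 3, 2 neural markers were higher and 1 lower, 3 mesoderm markers were higher and 2 lower, 3 endoderm markers were higher and 6 lower, and 1 of 2 tested markers of placenta and muscle was higher and 1 lower. Of 11 tested fibroblast markers 6 were higher and 3 lower on day 3.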

How the data were processed

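Libraries of the GFP+ cells were strand-specific mRNA libraries sequenced with paired-end reads, and how the time-course libraries were made is not given in the sources used here. The authors deposited, per RefSeq transcript and library, the estimated counts of kallisto (version 0.42.1, with mm10, per the submitters' processing notes) and TPM, neither normalized between libraries, and a table of TPM per gene. Tables with the fold changes and p-values of their own comparisons were not used. The RefSeq table of GRCm38.p6 gave a gene for 33713 of 34079 transcripts, GENCODE M21 gave one for 192 more, and the other 174 did not enter the tests. Between 1.65% and 3.57% of counts had no gene. Sequences and positions are those of RefSeq, GRCm38.p6, and mm10 is the same assembly. Promoter windows matched for all 5 genes.

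Estimated counts were summed per gene, rounded, and tested with edgeR 4.0.16 in R 4.3.3 (filterByExpr, TMM, robust quasi-likelihood fit, Benjamini-Hochberg over all genes, threshold 0.05). The 6 GFP+ and the 12 time-course libraries were fitted separately, with 13725 and 14382 genes. SE is the absolute log2 fold change divided by the square root of F. CPM use TMM-scaled library sizes. Counting intervals are 95% exact binomial (Clopper-Pearson) on pooled counts and leave out the spread between libraries. Alternatives were DESeq2 1.42.0, upper-quartile scaling, no filter, the replicate number as a block, only the groups compared, limma 3.58.1 on log2(TPM + 1) and log2(TPM + 0.1), and leaving out each library. The fits were also run on simulated counts with few changed genes and the same dispersion for every gene. That setting differs from these data, and no result here rests on it. Genes named beside the cluster are the nearest tested neighbours, the 3 most correlated genes (mean log2 CPM not under 1) and, from each list, the 3 largest called changes with *Dnmt3a*, *Dnmt3b*, *Zfp57*, *Dppa3* and *H19*. An item that this rule names is not reported here. The lists were imprint maintenance, DNA methylation and Polycomb factors, other imprinted genes, Notch and thyroid hormone genes, and markers of ES cells, fibroblasts, endoderm, formative, neural, mesoderm, and placenta and muscle cells. The 5 genes and all lists were chosen with earlier results of these data known.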

Additional observations from a re-analysis of the deposited data

How the results depend on the processing

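In the time course, the calls of the 5 genes kept their number under every alternative except that leaving out single libraries gave 4 to 5 calls on day 3, and *Meg3* on day 1 lost its call under limma on TPM. The count of all called genes stayed within 1.5 times in the time course. In GFP+ cells it depended on the setting. *Nprl2* KO against wild-type gave 882 calls, 1670 without the filter, 2072 with the replicate number as a block, and 339 to 551 without any 1 of its libraries. *Tsc2* KO against wild-type gave 3996 calls, and 2234 to 3060 without any 1 library, and *Tsc2* KO against *Nprl2* KO gave 4692, and 2983 to 3616. Of the 4 tested genes of the cluster, 1 was called in the last comparison, and 1 to 2 without any 1 library. Same-numbered libraries had deviations that correlated at 0.16, 0.13 and 0.08 between GFP+ genotypes and at -0.11 to 0.13 between days, so the numbers were not taken as pairs, and in the time course not every library correlated best with its own number. The block changed no number of calls in the cluster, at 5, 5 and 4 of 5 on days 1, 2 and 3.

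In *Tsc2* KO against *Nprl2* KO, directions of genes that were not called turned with 1 library. Without any 1 library, *Meg3* lay between -1.36 and 0.41, *Rian* between -1.21 and 0.49 and *Mirg* between -0.27 and 0.93. *Meg3* went to 0.41 and *Rian* to 0.49 without *Tsc2* KO library 2, *Rian* to 0.36 without *Nprl2* KO library 2, and *Mirg* to -0.27 without *Nprl2* KO library 1 and to -0.21 without *Tsc2* KO library 1. *Dppa3*, not called on day 1, lay between -0.44 and 0.0946, with 0.0946 without day 0 library 2 and 0.0029 without day 1 library 3. Where a library was left out of a pair, the lone library was assumed to vary like the other groups. For *Meg3*, *Rian* and *Mirg* all 4 KO libraries lay below both wild-type libraries. Leaving out 1 library could therefore not turn the direction of their folds against wild-type, and only the size could move. In *Tsc2* KO the log2 ratios were -5.01 to -3.24 for *Meg3*, -5.93 to -4.24 for *Rian* and -5.91 to -5.18 for *Mirg*. In *Nprl2* KO they were -3.67 to -3.61, -5.23 to -4.39 and -6.52 to -5.23. *Dlk1*, *Mirg* and *Rtl1* in the KOs rest on few counts.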
